A study of Macaca mulatta and Mus musculus with 5 samples.

Results

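The killer lectin-like receptor genes were followed across the immune cells of the mouse meninges, the membranes that enclose the brain. They were taken as every row of the mouse table whose symbol begins with Klra, Klrb, Klrc, Klrd, Klre, Klrg, Klri or Klrk, which gave 26 of 31017 genes. Of these, 11 were Ly49 genes (Klra), 5 were NKR-P1 genes (Klrb), 4 belonged to the CD94/NKG2 group (Klrd1 and Klrc), 1 encoded NKG2D (Klrk1), 3 were Klre1, Klri1 and Klri2, and 2 were Klrg1 and Klrg2. All 26 lie on chromosome 6 of mm10. The 24 other than Klrg1 and Klrg2 lie within 2.64 Mb, the region known as the natural killer gene complex.

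The study profiled meningeal immune cells from male C57BL/6 mice aged 2, 21 and 48 days by 3′-end single-cell RNA sequencing. The sort is given as CD45–CD11b–, and it is not stated whether the first dash is a minus sign. Cells of the 3 ages carried hashtag antibodies and were pooled in 1 library, and cells could not be assigned to an age here. Macaque libraries of the same series were not used. All groups below are therefore cell classes within 1 library, with no replicate and no statistical test, and the exact 95% intervals cover counting error only.

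Killer lectin-like receptors are C-type lectin-like proteins by which natural killer (NK) cells weigh inhibition against activation when they meet another cell. In the mouse the Ly49 receptors read classical MHC class I molecules, CD94 paired with an NKG2 chain reads the non-classical molecule Qa-1, and NKG2D reads stress-induced ligands. Inhibitory members carry a tyrosine-based motif in the cytoplasmic tail, at the start of the protein, and activating members lack it and pair with adaptor proteins such as DAP12 (Tyrobp) or DAP10 (Hcst). Single NK cells express only part of the Ly49 genes of their genome, and several T cell types use the same receptors.

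The start of the coding sequence shows which Ly49 gene is of which kind, so the first 48 coding bases are given for the Ly49 genes on which the results turn, 5′ to 3′ on the coding strand, from GENCODE M21 transcripts. Capitals mark codon 8, the tyrosine codon of the motif in the inhibitory receptors.
Klra1: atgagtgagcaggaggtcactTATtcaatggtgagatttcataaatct
Klra3: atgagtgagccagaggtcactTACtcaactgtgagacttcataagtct
Klra5: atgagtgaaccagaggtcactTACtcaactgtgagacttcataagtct
Klra6: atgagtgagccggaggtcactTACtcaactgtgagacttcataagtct
Klra7: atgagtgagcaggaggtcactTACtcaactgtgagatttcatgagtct
Klra9: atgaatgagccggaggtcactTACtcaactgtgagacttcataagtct
Klra17: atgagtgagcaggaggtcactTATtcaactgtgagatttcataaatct
Klra4: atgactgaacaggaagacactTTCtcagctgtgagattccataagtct
Klra8: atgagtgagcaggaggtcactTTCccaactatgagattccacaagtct
Counted from 1 at the first base of the start codon, Klra4 (Ly49D) and Klra8 (Ly49H) differ from Klra1 (Ly49A) at codon 8 by A23T and T24C, which replaces a tyrosine codon with a phenylalanine codon. A search of the first 50 codons for the inhibitory motif found it in 9 of the 11 Ly49 genes, and Klra4 and Klra8 were the 2 without it. The same contrast is seen between Klrc1, which encodes the inhibitory chain NKG2A, and Klrc2, which encodes the activating chain NKG2C, shown here with codon 8 in capitals.
Klrc1: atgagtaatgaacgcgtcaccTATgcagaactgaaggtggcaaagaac
Klrc2: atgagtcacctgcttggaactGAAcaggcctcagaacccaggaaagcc
Among the NKR-P1 genes, Klrb1b, which encodes the inhibitory receptor NKR-P1B, has the motif with its tyrosine at codon 8. Klrb1 has it with the tyrosine at codon 7, and no match was found in the first 50 codons of Klrb1a, Klrb1c or Klrb1f.

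The cells compared were divided into classes, each defined by genes outside the receptor family. NK cells had at least 1 UMI (unique molecular identifier, a counted RNA molecule) of Ncr1, the NK receptor gene for NKp46, and none of Cd3e, a chain of the T cell receptor complex. T cells had Cd3e and were divided by Cd8b1, a chain of the CD8 co-receptor. Innate lymphoid cells (ILC) had Gata3, the master regulator of group 2 ILC, without Cd3e or Ncr1, and B cells had at least 3 UMIs from at least 2 genes of a short B cell list that includes Cd79a, Cd79b and Ms4a1. There were 234 NK cells, 526 Cd8b1-positive T cells, 1360 Cd8b1-negative T cells, 370 ILC and 9711 B cells among 13267 cells kept, with median depths of 9534.5, 10187.5, 7601, 8545.5 and 5797 UMIs per cell. Another 551 cells that met the B rule together with Cd3e, Ncr1 or Gata3 were left out.

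NK, T, ILC2 and B cell markers outside the gates were highest in the classes they name, as sums, and were also found in others. Summed NK markers stood at 9063 CPM (UMIs of a gene scaled to 1000000 UMIs of the class) in NK cells, 2269 and 1752 CPM in Cd8b1-positive and Cd8b1-negative T cells, 729 CPM in ILC and 174 CPM in B cells, and summed ILC2 markers at 3411 CPM in ILC and at 76.5 to 437 CPM in the other classes. Summed T cell markers stood at 5325 and 5145 CPM in Cd8b1-positive and Cd8b1-negative T cells, 1275 CPM in NK cells, 1144 CPM in ILC and 46.4 CPM in B cells. Cd8a stood at 573 CPM in Cd8b1-positive T cells and at 19.7 CPM or less in the others. CD4 T cell markers stood at 412 CPM in Cd8b1-negative T cells, 352 CPM in ILC, 152 CPM in Cd8b1-positive T cells and 66.3 CPM in NK cells, with Cd4 and Foxp3 at 0 in the last. Gamma-delta T cell markers stood at 1521 CPM in Cd8b1-negative T cells, 439 CPM in ILC and 201 CPM or less in the others. B cell markers summed to 11750 CPM in B cells and 429 to 487 CPM elsewhere. Plasmacytoid dendritic cell markers summed to 336 to 475 CPM, myeloid markers to 7.86 to 85.4 CPM and stromal and vascular markers to 27.7 to 104 CPM in the 5 classes, with Col1a1, Dcn and Cldn5 at 0 in NK cells. Basophil and mast cell markers were highest in ILC, at 445 CPM against 40.3 CPM or less in the others. Erythroid markers stood at 42.4 CPM in NK cells and at 469 to 1330 CPM in the other classes. NK cells carried UMIs of some T cell genes: Trbc1 in 91.9% of cells, Trbc2 in 62.8%, Cd3g in 32.9%, Cd3d in 14.5% and Trac in 13.2%. Their part in the results was not tested. Of NK cells, ILC and B cells, 3, 22 and 7378 had no UMI of these 5 genes or Cd3e, and in them 7 receptor genes in place of 14 were higher in NK cells than in Cd8b1-negative T cells, and 2 in place of 7 in ILC than in B cells. With no UMI of Cd3e, Cd3d or Trac, which left 178, 312 and 8965 cells, the first count was 14 and the second 4. The B cell gene Ighm stood at 239 to 301 CPM outside B cells and at 5229 CPM in them. The NK and T cell genes Gzma, Cd3d, Xcl1 and Nkg7 had B cell levels of 1.57%, 4.01%, 4.05% and 6.21% of their level over all kept cells.

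NK cells held the highest level of most receptor genes. Of the 26 genes, 23 had at least 20 UMIs over the 5 classes, and 18 of these were highest in NK cells, 3 in Cd8b1-negative T cells (Klra1, Klra5 and Klra6), 1 in Cd8b1-positive T cells (Klra17), 1 in ILC (Klrg1) and none in B cells. The remaining 3, Klra2, Klra10 and Klrg2, had 3, 5 and 8 UMIs and are not described further. Levels of different genes are not ranked against each other here, since a 3′-end library counts tags and its yield differs between genes.

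**Figure D1:**
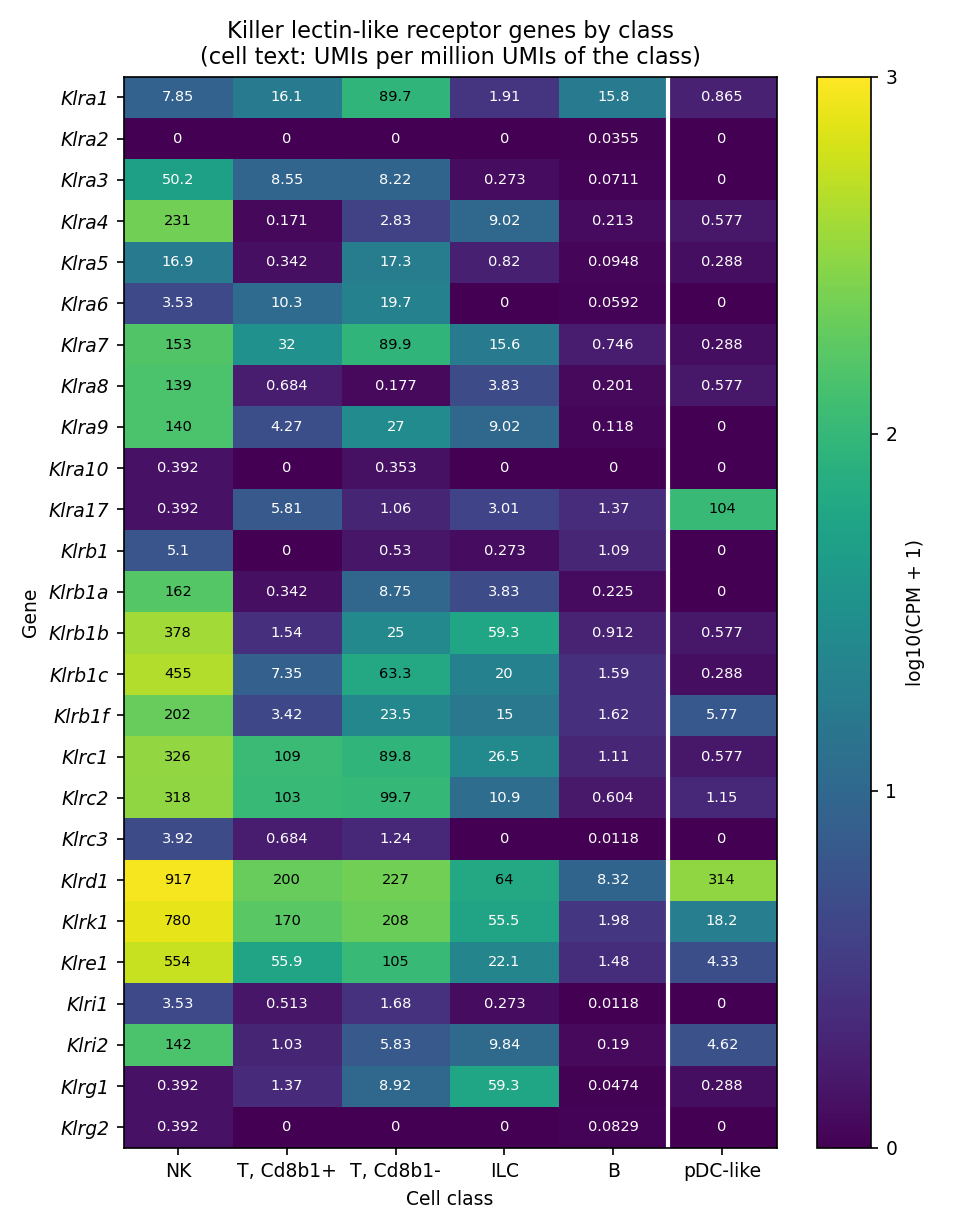
Level of each of the 26 receptor genes (rows, by receptor group) in the 5 classes and in plasmacytoid dendritic-like (pDC-like) cells (columns), coloured by log10(CPM + 1) with the CPM printed in each cell. The NK column holds most of the high values, while Klra1, Klrg1 and Klra17 are highest in Cd8b1-negative T cells, ILC and pDC-like cells.

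Receptor genes were called higher in a class where their level was at least 2-fold that of the other, among genes with a mean level over both classes of at least 10 CPM. Between NK cells and Cd8b1-positive T cells 16 of the 26 genes reached that minimum; 15 were higher in NK cells, where 6.03% of all genes at the minimum were, and 1, Klra1, was lower, against 2.53% of all genes. Between NK cells and Cd8b1-negative T cells 18 reached it; 14 were higher (3.77% of all genes) and 2, Klra1 and Klra6, were lower (3.44%). Between NK cells and ILC 16 reached it; 15 were higher (6.01%) and Klrg1 was lower (5.79%). Against B cells 16 reached it, of which 15 were higher (12.6%) and Klra1 was lower (13.1%). The 15 stood at 8.32 CPM or less in B cells and reached the minimum only through NK cells, so none could be called lower. Neither their count nor the direction of their median is support. The median log2 differences of the genes at the minimum were 4.17, 2.39, 3.90 and 8.66 in the same order, where those of all genes at the minimum were 0.18, 0.02, 0.07 and -0.13. The 4 comparisons share the NK cells. Here and in the comparisons below, a gene high in 1 class can reach the minimum through it alone, so these counts are descriptions.

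Among the Ly49 genes, the 2 activating receptors were nearly absent from T cells, while several of the inhibitory ones, such as Klra7 and Klra9, were found in both NK and T cells. Klra4, the gene of the activating receptor Ly49D, stood at 231 CPM (213 to 251) in NK cells, with 589 UMIs in 34 cells. It had 1 UMI in Cd8b1-positive T cells, 32 UMIs in 4 Cd8b1-negative T cells, 33 UMIs in 6 ILC and 18 UMIs in 18 B cells. Klra8, the gene of Ly49H, the activating receptor known for recognising a cytomegalovirus protein, stood at 139 CPM (125 to 154) in NK cells. Only 2 UMIs of it were found in 1360 Cd8b1-negative T cells, a ratio of 786 (216 to 6518), and 4 UMIs in 1 Cd8b1-positive T cell. Of all Ly49 UMIs, Klra4 and Klra8 made up 49.9% (47.6 to 52.1%) in NK cells, 29.6% (22.6 to 37.3%) in ILC, 1.17% (0.813 to 1.63%) in Cd8b1-negative T cells and 1.09% (0.356 to 2.53%) in Cd8b1-positive T cells. The ILC share rests on 47 UMIs, with all 14 of Klra8 from 1 cell. Of the 47, 45 came from the 76 ILC without Il1rl1, a part described below. Since yield differs between genes, these shares serve to compare classes and do not give the part of Ly49 RNA that is activating. T cells with Ncr1 held 30 Klra4 UMIs in 2 cells, and the level in Cd8b1-negative T cells went from 2.83 to 0.18 CPM without Ncr1-positive T cells.

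**Figure D2:**
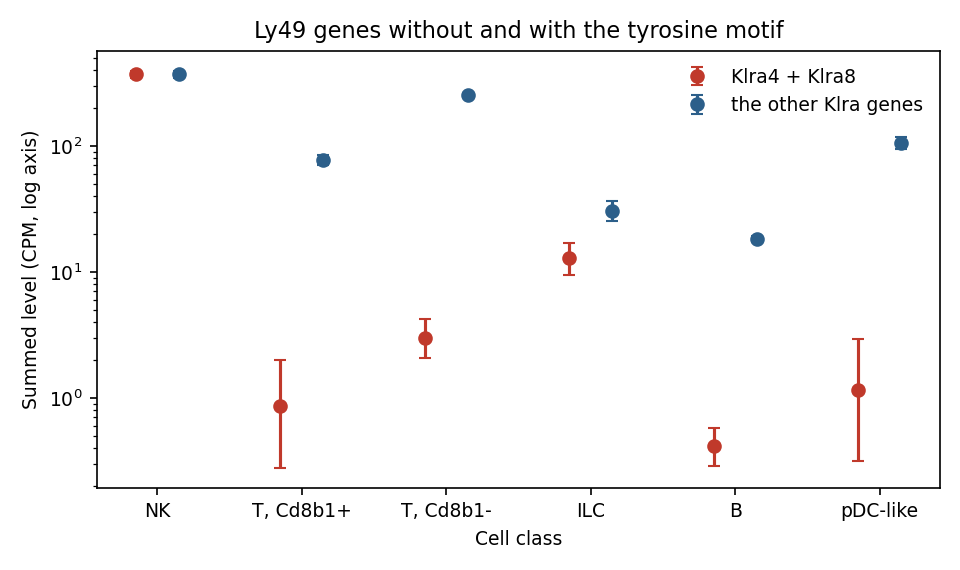
Summed level in CPM (log axis) of the 2 Ly49 genes without the inhibitory motif (red) and of the other 9 Ly49 genes (blue) in each class, with exact 95% intervals for counting error. The red sum stands at 370 CPM in NK cells and 3 CPM in Cd8b1-negative T cells, and the blue sum at 372 and 253 CPM.

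Of the inhibitory Ly49 genes, Klra3, Klra7 and Klra9 were highest in NK cells and Klra1 and Klra6 in Cd8b1-negative T cells. Klra5 did not differ clearly between these classes, and Klra17 is described below. Klra7, the gene of Ly49G, stood at 153 CPM (138 to 169) in NK cells, 89.9 CPM (84.5 to 95.6) in Cd8b1-negative T cells, 32 CPM (27.5 to 36.9) in Cd8b1-positive T cells, 15.6 CPM in ILC and 0.746 CPM in B cells, so that its 1.70-fold difference between NK and Cd8b1-negative T cells was under the 2-fold rule. Klra9 (Ly49I) stood at 140 CPM in NK cells and 27 CPM in Cd8b1-negative T cells, and Klra3 (Ly49C) at 50.2 and 8.22 CPM. Klra1 (Ly49A) had the opposite order, with 7.85 CPM (4.79 to 12.1) in NK cells and 89.7 CPM (84.2 to 95.4) in Cd8b1-negative T cells, an 11.4-fold difference (7.36 to 18.8). Klra6 (Ly49F) was 5.58-fold higher (2.89 to 12.4) in Cd8b1-negative T cells than in NK cells, at 19.7 against 3.53 CPM. Klra5 (Ly49E) stood at 16.9 CPM in NK cells and 17.3 CPM in Cd8b1-negative T cells, with overlapping intervals. Klra3, Klra7 and Klra9 share 8.52%, 10.2% and 14.1% of the 90-base stretches of their last 500 transcript bases with another gene or pseudogene of the family, and reads from those stretches cannot be told apart. Klra1, Klra4 and Klra8 share none.

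Ly49 genes were found in a part of the NK cells, often several in the same cell. With every cell thinned to 1000 UMIs, 63 of 234 NK cells (26.9%, 21.4 to 33.1%) had a UMI of at least 1 Ly49 gene, as had 12.1% of Cd8b1-negative T cells, 2.85% of Cd8b1-positive T cells, 1.36% of ILC and 1.72% of B cells. At full depth the shares were 43.6%, 19.6%, 10.1%, 5.14% and 10.6%. The B cell share rests mainly on Klra1, described below. At full depth 37 NK cells (15.8%) had 3 or more Ly49 genes, 16 had 2 and 49 had 1, whereas no B cell had 3 or more. NK cells with and without a Ly49 UMI had median depths of 10015.5 and 9178.5 UMIs. The NK shares hold for the cells of a sort given as CD11b–, pooled over ages. UMIs were concentrated in few cells, with up to 57 Klra4 UMIs in 1 cell, so the counting intervals of Ly49 levels are narrower than the spread that other samples of cells would give.

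The activating genes were found beside inhibitory ones. Of the 31 NK cells with Klra8, 23 also had Klra7 (74.2%), where 19.2% of all NK cells had it, and 16 also had Klra4 (51.6%), where 14.5% of all NK cells had it. Of the 34 cells with Klra4, 23 also had Klra7 (67.6%) and 15 also had Klra9 (44.1%), a gene found in 25.2% of all NK cells. These shares are descriptions over cells of 1 library that differ in depth. Klra4, Klra7 and Klra8 were also all higher in the NK cells with Eomes described next. The shares over all NK cells are not matched to that part.

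NK cells fell into parts by Eomes, the transcription factor of conventional NK cells, and Itga1, the gene of CD49a, known from tissue-resident NK cells and ILC1, and most Ly49 UMIs were in the Eomes part. This division was chosen after the values were seen. There were 53 NK cells with Eomes and without Itga1 (median 10929 UMIs) and 105 with Itga1 and without Eomes (median 8681), beside 18 with both and 58 with neither. Klra8 stood at 337 CPM (296 to 382) in the Eomes cells, in 18 of 53, and at 10.3 CPM (4.95 to 19.0) in the Itga1 cells, where all 10 UMIs came from 1 cell, a ratio of 32.6 (17.4 to 68.9). Klra7 was 28.2-fold higher (15.5 to 57.3) in the Eomes cells, at 320 against 11.4 CPM, and Klra3 13.4-fold higher (6.97 to 28.7). Klra4 was 10.7-fold higher (8.04 to 14.5), at 586 CPM in 25 cells against 54.7 CPM in 2 cells. Klri2, whose product pairs with that of Klre1, was 8.43-fold higher (5.91 to 12.3), at 313 against 37.2 CPM.

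Klra9 did not follow this division, with 171 CPM (142 to 204) in the Eomes cells and 153 CPM (129 to 179) in the Itga1 cells. Klra5 had 16 UMIs in 3 of the 105 Itga1 cells and none in the 53 Eomes cells, too few cells to give a direction. The NKR-P1 gene Klrb1b was 3.32-fold higher (2.71 to 4.09) in the Itga1 cells, at 536 against 161 CPM, and was found in 104 of 105 of them against 24 of 53 Eomes cells. Klrb1a was 1.72-fold higher (1.34 to 2.22) and Klrk1 1.54-fold higher (1.38 to 1.73) in the Itga1 cells. Klrd1, Klre1 and Klrb1c differed by less than 1.3-fold. Beside these, Gzma, a granule protease gene, stood at 2550 CPM in the Eomes cells and 140 CPM in the Itga1 cells, and the T cell gene Cd3d at 62.1 and 4.13 CPM.

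**Figure D3:**
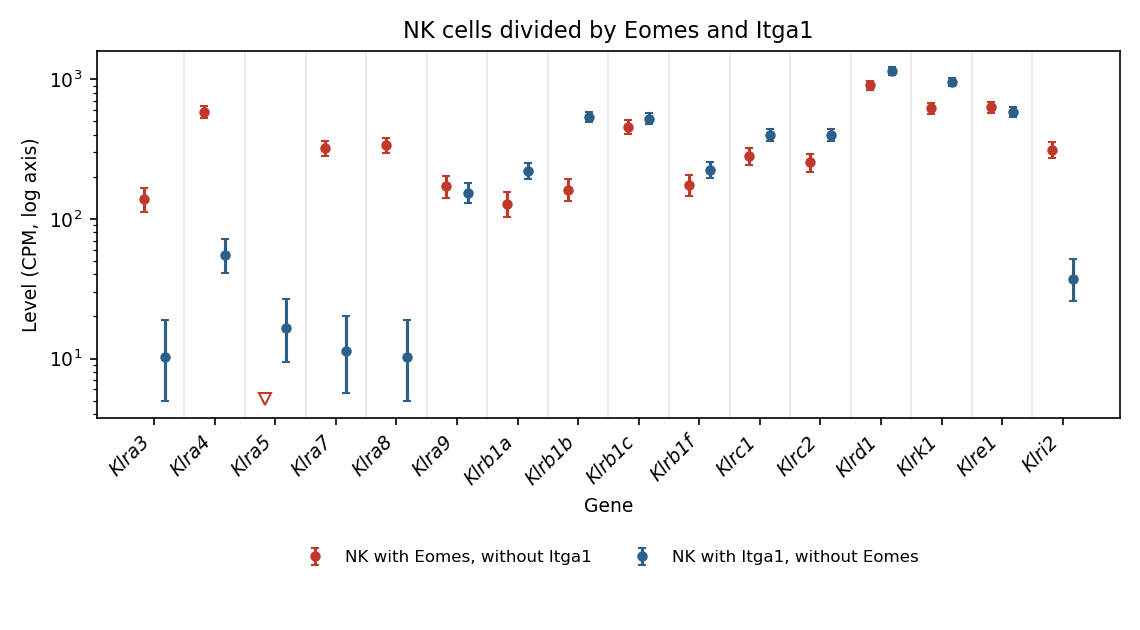
Level in CPM (log axis) of 16 receptor genes in NK cells with Eomes and without Itga1 (red, 53 cells) and with Itga1 and without Eomes (blue, 105 cells), with exact 95% intervals for counting error. The open triangle is the upper interval bound of Klra5, which had no UMI in the Eomes cells. Klra3, Klra4, Klra7, Klra8 and Klri2 stand higher in the Eomes cells and Klrb1b in the Itga1 cells, while Klra9 overlaps.

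The NKR-P1 genes Klrb1a, Klrb1b, Klrb1c and Klrb1f were high in NK cells and low in Cd8b1-positive T cells. Klrb1c, the gene of NK1.1, the antigen by which NK cells of C57BL/6 mice are usually sorted, was found in 216 of 234 NK cells and stood at 455 CPM (429 to 482) there, at 63.3 CPM in Cd8b1-negative T cells and at 7.35 CPM in Cd8b1-positive T cells, a 61.9-fold difference (45.7 to 86.1) from the latter. Klrb1b, the inhibitory receptor for the lectin Clr-b (Clec2d), stood at 378 CPM in NK cells, 59.3 CPM in ILC, 25 CPM in Cd8b1-negative T cells and 1.54 CPM in Cd8b1-positive T cells. Klrb1f, whose product binds Clr-g (Clec2i), stood at 202 CPM in NK cells and 23.5 CPM in Cd8b1-negative T cells, and Klrb1a at 162 and 8.75 CPM. Klrb1 was rare in NK cells, with 13 UMIs in 10 cells. Thinned to 1000 UMIs, 72.2% of NK cells, 9.19% of Cd8b1-negative T cells, 5.69% of ILC, 1.90% of Cd8b1-positive T cells and 0.422% of B cells had a UMI of any NKR-P1 gene.

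The CD94 gene and the NKG2D gene were found in NK cells and in both T cell classes. Klrd1, the gene of CD94, the common partner of the NKG2 chains, stood at 917 CPM (880 to 955) in NK cells, 227 CPM (219 to 236) in Cd8b1-negative and 200 CPM (189 to 212) in Cd8b1-positive T cells, 64 CPM (56.0 to 72.7) in ILC and 8.32 CPM (7.71 to 8.96) in B cells. Klrk1, the gene of NKG2D, followed the same order, at 780, 208, 170, 55.5 and 1.98 CPM. The inhibitory chain gene Klrc1 and the activating chain gene Klrc2 stood at 326 and 318 CPM in NK cells, 109 and 103 CPM in Cd8b1-positive and 89.8 and 99.7 CPM in Cd8b1-negative T cells. For both, NK cells were 2.99 to 3.64-fold higher than either T class, the smallest folds among the genes called higher in NK cells than in the T class. Of the 137 NK cells with Klrc1, 126 also had Klrc2 and 130 had Klrd1. The split between Klrc1 and Klrc2 is uncertain, since 32.6% and 18.5% of the 90-base stretches of their last 500 transcript bases are found in both. Klrc3 had 10 UMIs in NK cells and 29 over all classes.

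Klre1 and the Klri genes encode receptors that work as pairs, Klre1 with Klri1 in an inhibitory and with Klri2 in an activating form. Klre1 stood at 554 CPM (526 to 584) in NK cells, 105 CPM in Cd8b1-negative T cells, 55.9 CPM in Cd8b1-positive T cells and 22.1 CPM in ILC. Klri2 stood at 142 CPM (127 to 157) in NK cells and 5.83 CPM in Cd8b1-negative T cells, a 24.3-fold difference (18.6 to 32.1), and Klri1 had 9 UMIs in NK cells and 33 over all classes. Of the 76 NK cells with Klri2, 71 also had Klre1.

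Cd8b1-negative T cells exceeded Cd8b1-positive T cells in 6 of the 12 receptor genes at the minimum (3.26% of all genes) and were lower in none (0.662% of all genes), with a median log2 difference of 1.22 for these 12 and 0.16 for all genes. The 6 were Klra1, Klra7, Klra9, Klrb1b, Klrb1c and Klrb1f, with ratios from 2.81 for Klra7 to 16.3 for Klrb1b. The other 6, Klra6, Klrc1, Klrc2, Klrd1, Klre1 and Klrk1, differed by less than 2-fold. Among the 12 at the minimum, the genes called higher were thus all Ly49 or NKR-P1 genes. The 4 CD94/NKG2 and NKG2D genes at the minimum stood between 0.823 and 1.23 times the Cd8b1-positive level. Without the minimum 12 genes were higher, and they were not all of these 2 groups. Klrg1 was 6.53-fold (3.19 to 15.5) and Klri2 5.69-fold (2.48 to 16.1) higher. Klra17 was 5.48-fold lower (2.77 to 11.6), and Klra8, on 2 and 4 UMIs, was also lower.

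Within the Cd8b1-negative T cells, Ly49 UMIs were concentrated in cells with the T cell receptor chain gene Trac and neither Cd4 nor Trdc, the constant region gene of the gamma-delta receptor. This division, too, was chosen after the values were seen. In those 421 cells Klra1 stood at 228 CPM (213 to 244), Klra7 at 236 CPM (220 to 252), Klra9 at 64.5 CPM and Klra6 at 53.4 CPM. In the 383 cells with Trac and Cd4 the values were 3.05, 3.05, 3.38 and 0.677 CPM. The ratio was 74.9 (39.3 to 164) for Klra1 and 77.4 (40.6 to 170) for Klra7, and 5.38 (4.68 to 6.21) for Klrd1, at 417 against 77.5 CPM. Klrg1 had the opposite order, at 6.79 CPM against 17.9 CPM in the cells with Cd4. Over the 421 cells, Klra4 and Klra8 together had 2 of 2246 Ly49 UMIs.

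The 350 cells with Trdc and without Trac had another set. Klrb1b stood at 53.2 CPM there, against 8.48 CPM in the Trac cells without Cd4, and Klrc1 stood at 103 against 149 CPM. Klra1 and Klra7 were 6.31-fold (5.15 to 7.80) and 10.5-fold (8.14 to 13.7) lower than in the Trac cells without Cd4. Klrb1f stood at 27.3 CPM against 22.6 CPM.

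**Figure D4:**
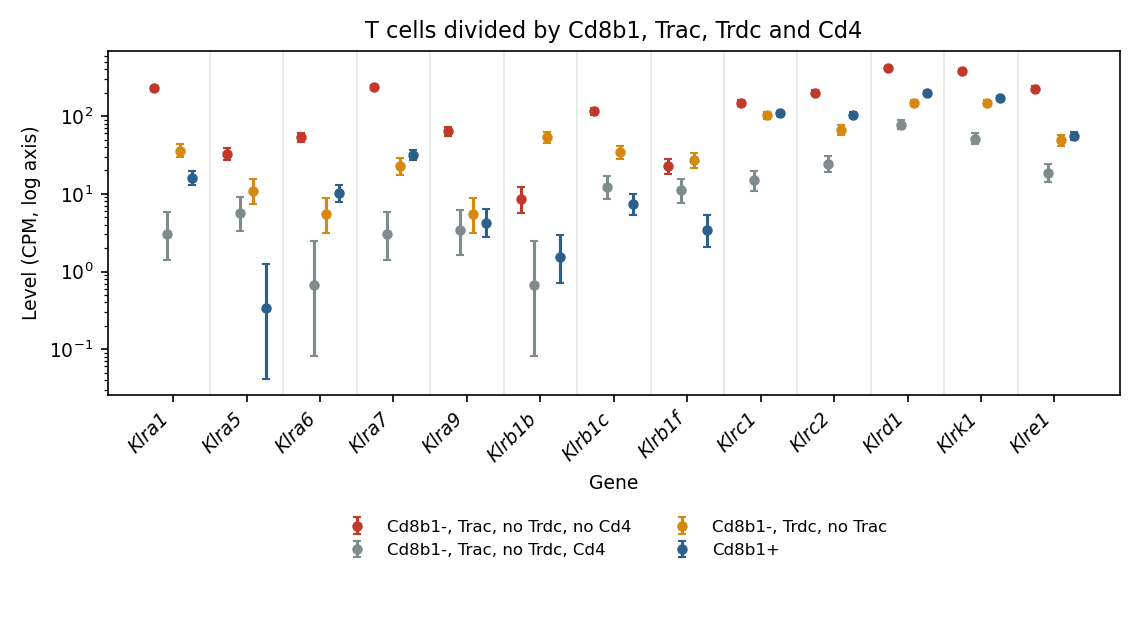
Level in CPM (log axis) of 13 receptor genes in Cd8b1-negative T cells with Trac and without Trdc or Cd4 (red), with Trac and Cd4 (grey) and with Trdc and without Trac (orange), and in Cd8b1-positive T cells (blue), with exact 95% intervals for counting error. The red points lie above the others for all genes shown except Klrb1b and Klrb1f.

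Several Ly49 genes were found in the same T cells. Of 83 Cd8b1-negative T cells with Klra6, 66 also had Klra7 (79.5%), where 10.0% of all Cd8b1-negative T cells had Klra7, and of 155 cells with Klra1, 78 had Klra7 (50.3%). Klra1, Klra6 and Klra7 were all higher in the Trac cells without Cd4 than in those with it. The share over all Cd8b1-negative T cells is not matched to that part. The 47 T cells with an Ncr1 UMI, 46 of them without Cd8b1, had the highest T cell levels: Klra7 at 487 CPM (426 to 555), Klra1 at 393 CPM (338 to 454), Klrb1c at 384 CPM and Klrd1 at 972 CPM. Without them Klra7 in Cd8b1-negative T cells was 72.8 CPM in place of 89.9 CPM.

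Klrg1, which encodes an inhibitory receptor for cadherins, was the receptor gene highest in ILC. Against Cd8b1-negative T cells, 2 of the 12 receptor genes at the minimum were higher in ILC (4.34% of all genes), Klrg1 and Klrb1b, and 9 were lower (4.13%), with a median log2 difference of -1.79 where that of all genes was -0.04. Against B cells 7 of 7 genes at the minimum were higher (12.2% of all genes) and none was lower (14.2%), with medians of 4.57 and -0.16. All 7 were below 10 CPM in B cells and reached the minimum only through ILC, so they could only be called higher, and their count is no support. Klra1, under the minimum, was 8.27-fold lower (4.00 to 20.6) in ILC than in B cells, at 1.91 against 15.8 CPM. Klrg1 stood at 59.3 CPM (51.7 to 67.8) in ILC, in 99 of 370 cells, and at 8.92 CPM in Cd8b1-negative T cells, 1.37 CPM in Cd8b1-positive T cells and 0.0474 CPM in B cells. In the 22 ILC with no UMI of the 6 T cell genes Cd3e, Cd3d, Cd3g, Trac, Trbc1 and Trbc2 it stood at 12.9 CPM (2.66 to 37.8), less than 2-fold above the Cd8b1-negative T cells. Of 234 NK cells 1 had a single Klrg1 UMI, so that the ratio of ILC to NK cells was 151 (26.8 to 5998). These NK cells came from a sort given as CD11b– and from pooled ages, and the value holds for them only. In the thinned cells 7.32% of ILC and 0.0206% of B cells had a Klrg1 UMI.

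Klrg1 and the other receptor genes were found in different parts of the ILC class. The division of the class by Il1rl1 was chosen after the values were seen. Of the 99 Klrg1 cells, 96 had Il1rl1 (97.0%), where 79.5% of all ILC had it. Il1rl1, the gene of the interleukin-33 receptor, is a listed ILC2 marker. Basophil and mast cell markers and CD4 T cell markers, both found in the ILC class, are not given for the parts with and without Il1rl1. The 294 ILC with Il1rl1 had Klrg1 at 80.1 CPM (69.7 to 91.6) and no other receptor gene above 11.2 CPM, the level of Klrd1. The 76 ILC without Il1rl1 had 3 Klrg1 UMIs, and Klrd1 at 207 CPM (179 to 237), Klrb1b at 197 CPM (170 to 226), Klrk1 at 186 CPM (161 to 215) and Klrc1 at 95.3 CPM. Klrb1b, found in 43 of those 76 cells, was 22.8-fold higher (14.8 to 36.9) there than in the Il1rl1 cells. NK and T cell genes moved with this division: Nkg7 stood at 423 CPM without and 20.2 CPM with Il1rl1, Eomes at 26.4 and 0 CPM, Gzma at 68.9 and 0.374 CPM and Cd3d at 92.2 and 7.49 CPM. Their part in the receptor levels was not tested. With ILC taken only from the Il1rl1 cells, 1 gene, Klrg1, was higher in ILC than in Cd8b1-negative T cells and 1 was higher than in B cells.

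In B cells most receptor genes were about as low, relative to their level over all cells, as the NK and T cell genes Gzma, Cd3d, Xcl1 and Nkg7, and Klra1 was not. Of the 23 genes, 18 had a B cell level under 10% of their level over all kept cells. The median of the 23 was 4.40%, close to the 1.57 to 6.21% of Gzma, Cd3d, Xcl1 and Nkg7. Those are only part of the marker lists, and not every listed marker was so low. The B cell level of the NK marker Tyrobp, given below, was close to its T cell levels. Klra1 stood at 15.8 CPM (15 to 16.7), 74.0% of its level over all kept cells, with 1335 UMIs in 863 of 9711 B cells, and at 16.1 CPM in Cd8b1-positive T cells. In the thinned cells 1.5% of B cells had a Klra1 UMI. So had 1 of 234 NK cells (0.427%, 0.0108 to 2.36%) and 2 of 369 ILC (0.542%, 0.0657 to 1.94%), with intervals that hold the B cell share. The level was 16.0 CPM in B cells without Cd3e, Cd3d or Trac UMIs and 16.2 CPM in those without a Siglech UMI. Of the 863 B cells with Klra1, 36 also had Klrd1 (4.17%, against 3.91% of all B cells) and 36 had Cd3d (4.17%, against 4.52%). Klra1 was 2.02-fold higher (1.30 to 3.31) in B cells than in NK cells.

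Klra1 varied along the B lineage, with cells divided by genes of known stages after the values were seen. In 788 cells with Dntt and Vpreb1, genes of the earliest B-lineage stages, Klra1 stood at 7.66 CPM (6.04 to 9.59). Among the rest it stood at 18.8 CPM in 1914 cells with Mki67, a gene of dividing cells, and at 27 CPM (24.3 to 29.9) in 2497 cells with Rag1, a recombinase gene, and without Ms4a1, the gene of CD20. It stood at 13.1 CPM in 739 cells with Rag1 and Ms4a1, at 5.98 CPM (4.89 to 7.23) in 2901 cells with Ms4a1 and without Rag1, and at 18.1 CPM in 872 cells with neither. The Rag1 cells without Ms4a1 thus exceeded the Ms4a1 cells without Rag1 4.52-fold (3.63 to 5.67) and the Dntt and Vpreb1 cells 3.52-fold (2.75 to 4.57). Median depths of the 6 sets ran from 4867 to 13493 UMIs, and after thinning the share of cells with a Klra1 UMI was 2.52% in the Rag1 cells without Ms4a1, 0.552% in the Ms4a1 cells without Rag1 and 0.508% in the Dntt and Vpreb1 cells.

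Klrb1c and Klrb1 showed lower signals with a stage pattern of their own. Of 134 Klrb1c UMIs in B cells, 80 came from the Dntt and Vpreb1 cells, at 8.07 CPM (6.4 to 10) in 52 cells, and in the other sets its level was 1.21 CPM or less. Klrb1f was also highest there, at 3.03 CPM. Klrb1 had 92 of its 117 UMIs in B cells and stood at 1.09 CPM (0.879 to 1.34), 116% of its level over all kept cells, with 3.35 CPM in the Rag1 and Ms4a1 cells and 0.228 CPM in the Ms4a1 cells without Rag1. Of the NK markers, Nkg7 stood at 10.6 CPM in the Dntt and Vpreb1 cells and at 10.6 to 23.8 CPM in the other sets. Xcl1 stood at 5.35 CPM and at 3.33 to 8.59 CPM. The remaining NK markers are not given for these sets, and the source of the Klrb1c UMIs was not tested.

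**Figure D5:**
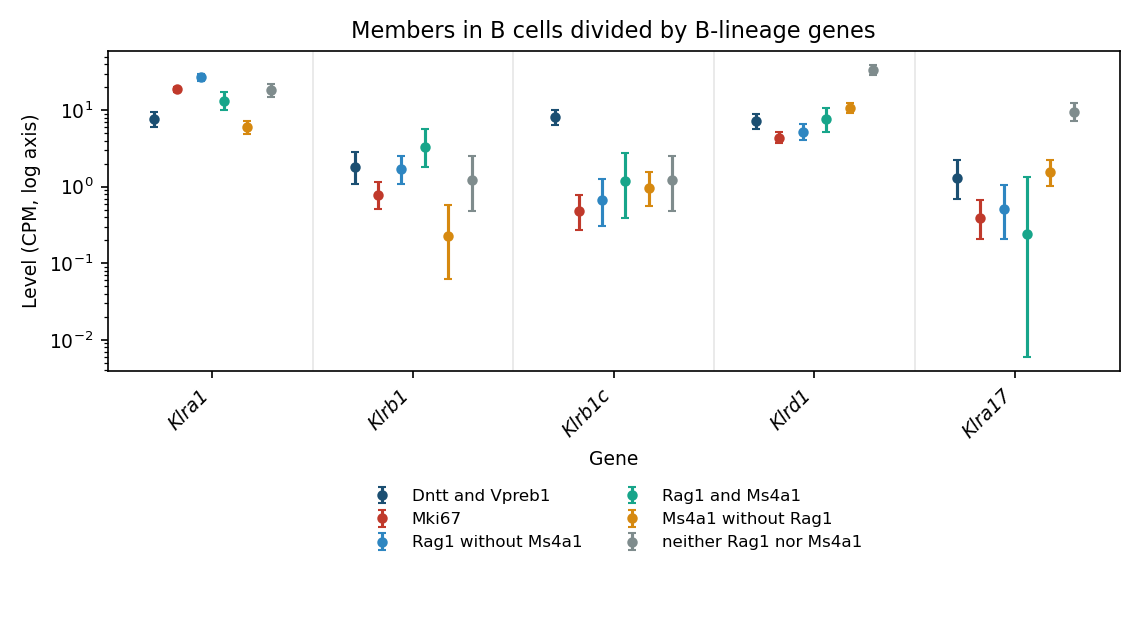
Level in CPM (log axis) of Klra1, Klrb1, Klrb1c, Klrd1 and Klra17 in 6 sets of B cells divided by Dntt with Vpreb1, Mki67, Rag1 and Ms4a1, with exact 95% intervals for counting error. Klra1 is highest in the Rag1 cells without Ms4a1, Klrb1c in the Dntt and Vpreb1 cells, and Klrd1 and Klra17 in the cells with neither Rag1 nor Ms4a1.

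Klra17, the gene of Ly49Q, had most of its UMIs outside the NK, T, ILC and B cell classes. They were found in 232 cells with at least 3 UMIs of Siglech and no Ncr1, Cd3e or B cell call, a set added after the values were seen. These cells were called plasmacytoid dendritic-like. Their Siglech level, 2430.0 CPM, was set by the gate and is no support for the name. Bst2 stood at 4061 CPM and Irf8 at 3224 CPM, where all 5 listed markers of this cell type summed to 475 CPM or less in each class. The listed markers Ccr9 and Cox6a2 are not given. Eomes and Gzma stood at 0, and 4 of the cells were also counted as ILC. Klra17 stood at 104 CPM (93.9 to 116) there, with 362 of its 549 UMIs in 130 cells, and was 76.0-fold higher (61.5 to 94.5) than in B cells. Klrd1 stood at 314 CPM (296 to 333), in 208 of the 232 cells, between its levels in NK cells and T cells. Its NKG2 partners were nearly absent, with 2 UMIs of Klrc1 and 4 of Klrc2, and Klrk1 stood at 18.2 CPM. Of the 130 cells with Klra17, 120 had Klrd1 (92.3%, against 89.7% of all these cells).

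Cells with Siglech UMIs within the classes carried the same 2 genes. Without them Klra17 was 0.72 CPM in place of 5.81 CPM in Cd8b1-positive T cells and 0.17 CPM in place of 1.37 CPM in B cells, and Klrd1 in B cells was 4.22 CPM in place of 8.32 CPM. The B cells with neither Rag1 nor Ms4a1, in which Klra17 (9.47 CPM) and Klrd1 (33.4 CPM) were highest, also had the highest Siglech level, 238 CPM against 9.27 to 38.9 CPM in the other sets.

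Genes of the signalling partners were measured in the same classes. Of 13 adaptor and signalling genes, none was at 0 in NK cells, and Sh2d1b1, an adaptor of SLAM-family receptors, was the only one at 0 in any class, Cd8b1-positive T cells. Tyrobp, the partner of activating Ly49 and of CD94/NKG2C, stood at 1412 CPM in NK cells, 128 and 102 CPM in Cd8b1-negative and Cd8b1-positive T cells, 201 CPM in ILC, 115 CPM in B cells and 4279 CPM in the plasmacytoid dendritic-like cells. Fcer1g stood at 1653 CPM in NK cells and 228 CPM in Cd8b1-negative T cells. Hcst, the partner of NKG2D, did not follow this order, at 609 CPM in NK cells and 608 and 767 CPM in Cd8b1-negative and Cd8b1-positive T cells. The summed level of the list was 4499 CPM in NK cells and 1059 to 1838 CPM in the other 4 classes.

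Ligand genes were measured in the same cells. Of the 20 listed, 16 were in the table, and 1 of these, H60c, had no UMI in any class. Klrd1 and Klrc1 products bind Qa-1, whose gene H2-T23 stood at 345 CPM in NK cells and 185 CPM in B cells, and H2-K1 and H2-D1, genes of Ly49 ligands, were lowest in B cells, at 840 and 1259 CPM, and highest in NK cells, at 3167 and 3160 CPM. Clec2d, the ligand gene of Klrb1b, stood between 116 and 203 CPM, and Clec2i, that of Klrb1f, between 19.8 and 66.8 CPM. The NKG2D ligand genes Raet1d, Raet1e and H60b stood at 2.47 CPM or less in every class and Ulbp1 at 4.96 to 17.9 CPM. Granule genes summed to 3237 CPM in NK cells, 1808 and 847 CPM in Cd8b1-positive and Cd8b1-negative T cells, 205 CPM in ILC and 16.8 CPM in B cells, and the 10 NK maturation genes to 2618 CPM in NK cells and 450 to 1114 CPM elsewhere. Among them Itgam, the gene of the sorting antigen CD11b, stood at 5.10 CPM in NK cells. The 3 neighbouring lectin genes in the table summed to 146 CPM in NK cells and 271 to 419 CPM in the other classes, and Cd69, a gene of recently activated lymphocytes, made up most of it, at 142 CPM in NK cells and 255 to 411 CPM elsewhere.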

How the data were processed

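The deposited mouse matrix holds raw UMI counts for each gene in each barcode. Per the submitters' processing notes the authors used Cell Ranger and mm10, with no version stated. There were 13947 barcodes with a median of 6309 UMIs. The filter required 300 genes and allowed 10% mitochondrial UMIs, which 13440 passed, and 173 doublets called by Scrublet were removed. Classes were gated on single cells as described above. 1 gene of the B cell gate is not reported here. Of the cells outside the mixed set, 515 met no gate. UMIs were summed per class and divided by its total (CPM), with exact Poisson intervals for levels, exact conditional intervals for ratios and Clopper-Pearson intervals for shares. In ratios a class at 0 was set to 3 counts. Cells were thinned without replacement to 1000 UMIs, leaving out shallower cells, for shares. Leiden clusters, made without the receptor and gate genes, served only an alternative; others changed filters, gates, fold, minimum and thinning.

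Receptor genes with at least 20 UMIs in the 5 classes were given values; other genes come from lists of adaptors, ligands, NK maturation, granule genes, neighbouring lectins and cell type markers, and Dntt and Mki67 were added after values were seen. The genes and lists were chosen with earlier results of these data known. Code was tested on simulated data. Coding sequences and shared 90-base stretches were read from GENCODE M21 transcripts. Sums and intervals were computed with scipy 1.17.1, numpy 2.4.6 and pandas 2.3.3 under Python 3.11.15, clusters and doublets with scanpy 1.11.5, and plots with matplotlib 3.10.9.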

Additional observations from a re-analysis of the deposited data

How the results depend on the processing

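No paired analysis was possible because all cells came from 1 library. The classes are gates on single genes, so undetected Ncr1, Cd3e or Gata3 misplaces cells, and no difference between the ages could be examined. Of the 15 receptor genes higher in NK cells than in Cd8b1-positive T cells and the 15 higher than in ILC, the counts stayed within 1.5 times under each alternative tried. Without the minimum level 23 genes were higher in NK cells than in B cells (15 with it), 12 in Cd8b1-negative than in Cd8b1-positive T cells (6), 5 in ILC than in Cd8b1-negative T cells (2) and 19 in ILC than in B cells (7). Excluding NK cells, ILC and B cells with any UMI of 6 T cell genes left 3 NK cells and 22 ILC; then 7 genes were higher in NK cells than in Cd8b1-negative T cells (14), 2 in ILC than in B cells (7), and the share of NK cells with a Ly49 UMI was 33.3% (26.9%). Klrg1 in ILC then stood at 12.9 CPM in place of 59.3 CPM. With 0 UMIs of Cd3e, Cd3d and Trac, an alternative added after seeing the data, 4 genes were higher in ILC than in B cells. Limiting cells to clusters in which their class led, or ILC to those with Il1rl1 (also added later), left 1 gene higher in ILC than in Cd8b1-negative T cells and 1 than in B cells. A 4-fold rule left 1 higher in ILC than in Cd8b1-negative T cells. Not thinned, 43.6% of NK cells had a Ly49 UMI. Of 1150 recomputed class levels of single genes, 942 stayed within the counting interval and 208 moved. Several alternatives changed the cells of only some classes, as with at least 2 Ncr1 UMIs, which changed only the NK cells. Many of the 942 therefore could not move, and their number does not measure how stable the levels are.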
